A study of Homo sapiens with 6 samples.

Results

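The mRNAs of 10 enzymes of glycolysis were followed through 6 lists of called sites, which mark where RNA fragments were recovered with AEG-1, the protein of the MTDH gene. The members were taken by gene symbol (HK2, GPI, ALDOA, TPI1, GAPDH, PGK1, PGAM1, ENO1, PKM, written PKM2 in the files, and LDHA). All 10 were found, each on a single RefSeq transcript, with 131 of the 72385 sites and 10 of the 8196 genes of the series. The material was AEG-1-14, a line made from HepG3 cells, which the labels call hepatoblastoma cells; whether it is 1 clone is not said. All groups, controls included, carry the same stably expressed AEG-1, HA-tagged at its C-terminus. The HITS-CLIP AEG1 group (2 libraries) was irradiated at 254 nm and the PAR-CLIP AEG1 group (1 library) at 365 nm. This step serves to bond RNA to protein before precipitation with an anti-HA antibody. Any photoreactive nucleoside given to the PAR-CLIP cells beforehand is not reported here. The HITS-CLIP negative control (2 libraries) and the PAR-CLIP negative control (1 library) were left without UV. The labels do not say that the 2 libraries of a HITS-CLIP group are separate cultures, and the spread between them can therefore be technical.

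Glycolysis splits glucose into pyruvate in the cytosol. Its enzymes are soluble proteins without a signal peptide, made on ribosomes that need no contact with the endoplasmic reticulum (ER). AEG-1 is an ER membrane protein that binds RNA, so these mRNAs serve as a cytosolic counterpart to the mRNAs of secreted and membrane proteins. HK2 phosphorylates glucose, GPI turns the product into fructose phosphate, ALDOA cleaves the bisphosphate and TPI1 interconverts the resulting trioses. GAPDH and PGK1 carry out the oxidation and the first ATP-yielding step. PGAM1 then moves the phosphate, ENO1 acts next, PKM makes pyruvate and LDHA reduces it to lactate.

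The libraries held 60 and 90 sites in the 2 HITS-CLIP negative controls and 6378 and 5651 in the HITS-CLIP AEG1 replicates. PAR-CLIP AEG1 held 60085 sites and its negative control 121. Read depth is unknown, as the values are a site's start, end and a log2 score by the authors. Of 10 hepatocyte and hepatoblastoma markers, 9 had sites in both HITS-CLIP AEG1 replicates, among them AFP, APOB and GPC3, and DLK1 had none in any library. ALB, serum albumin, had 5 and 10 sites there and 3 in PAR-CLIP AEG1, but also 11 and 9 in the HITS-CLIP negative controls and 13 in the PAR-CLIP negative control. SERPINA1, another of these markers, had 1 and 2 sites in the HITS-CLIP negative controls and 4 in the PAR-CLIP negative control. APOB had 1 in the PAR-CLIP negative control. Leukocyte markers had sites in both replicates for 1 of 5 genes (LYZ, lysozyme, with 8 and 6 sites), and CD14 had 1 site in HITS-CLIP AEG1 replicate 1 and 6 in PAR-CLIP AEG1. Of the others, 0 of 3 endothelial and 0 of 4 connective tissue markers had a site in any AEG1 library.

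AEG1 precipitation after UV recovered nearly all of the glycolytic mRNAs. The controls without UV held a single weak member site, among few sites in all. In HITS-CLIP AEG1, 8 of the 10 mRNAs had a site in both replicates, where 6.57% of 20056 protein-coding genes and 15.5% of the 8001 genes with a PAR-CLIP site did. PAR-CLIP AEG1 had sites on 10 of 10, where 39.8% of protein-coding genes had one. At least 2 sites in both replicates were found on 5 of 10 members and on 3.29% of protein-coding genes. The exceptions in HITS-CLIP were PGK1, with a site in replicate 2 alone, and PGAM1, with none. Members were chosen with earlier results of these data known, and their shares are descriptions without a test.

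By number, HITS-CLIP AEG1 replicate 1 held 31 sites on these mRNAs and replicate 2 held 24, a mean of 27.5 ± 4.95 (SD, n = 2). Both HITS-CLIP negative controls held 0. The groups did not overlap, and an exact permutation test, two-sided, gave p = 0.333, the smallest that 2 against 2 libraries allow. The controls held so few sites in all that, at the share seen in HITS-CLIP AEG1, 0.274 and 0.412 member sites would fall in them. A count of 0, and the test made on it, thus say little about these mRNAs in particular. Between 0.425% and 0.486% of all sites of a HITS-CLIP AEG1 library lay on these mRNAs. In PAR-CLIP AEG1 the number was 75 sites, or 0.125% of its sites, against 1 in the PAR-CLIP negative control, which is 0.826% of the 121 sites there.

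**Figure D1:**
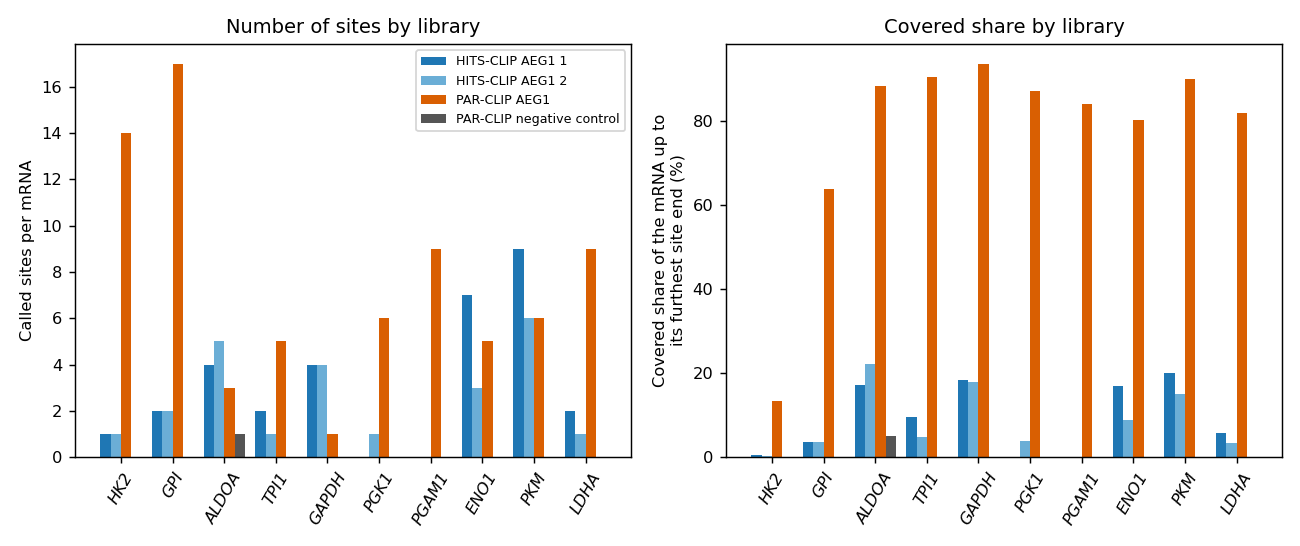
Bars give, for each of the 10 mRNAs and each library with a member site, the number of called sites (left) and the share of the mRNA covered by them up to its furthest site end in any library, in percent (right). PKM had most HITS-CLIP sites (9 and 6) and GPI most PAR-CLIP sites (17). GAPDH had a single PAR-CLIP site that covered 93.6% of the mRNA up to its furthest site end.

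Numbers of sites follow how far neighbouring fragments merge into a site, so covered length was set beside them. Every covered share of an mRNA below is taken up to its furthest site end in any library. Full mRNA lengths were not used, so shares of the full length can be lower. Positions are given in nt from the first base of the mRNA in the files. Scores are the authors' and are log2 values. Within an mRNA, all 131 member scores were whole multiples of a common amount, apart from a small set of fixed multipliers from 0.943 to 1, within a relative tolerance of 2e-05. These whole numbers are called units below. They compare libraries on the same mRNA, they do not compare mRNAs, and the meaning of 1 unit is unknown.

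**Figure D2:**
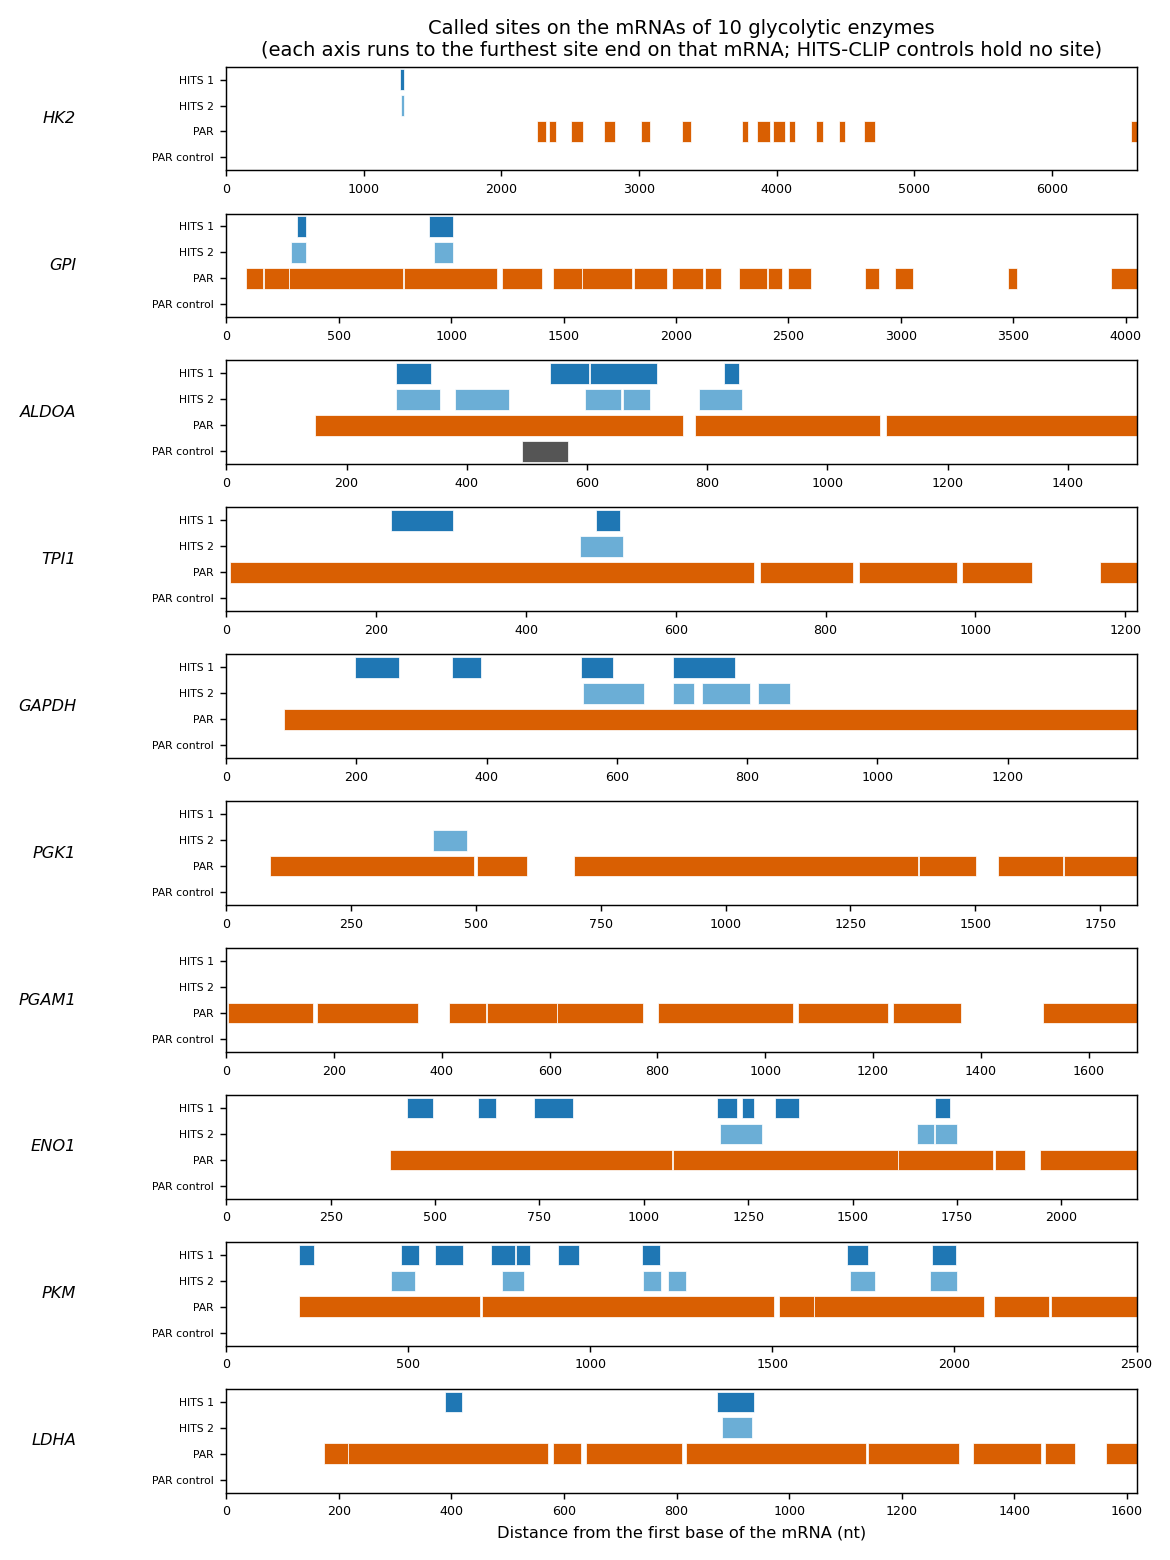
Each panel is 1 mRNA, with the distance from its first base in nt on the horizontal axis up to its furthest site end, and bars mark called sites in HITS-CLIP AEG1 replicates 1 and 2, PAR-CLIP AEG1 and the PAR-CLIP negative control. HITS-CLIP sites are short and end at 80.3% of the axis or before, whereas PAR-CLIP bars fill most of every panel except that of HK2 and the right part of that of GPI.

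Among the enzymes of the upper, ATP-consuming part, HK2 had the least HITS-CLIP cover, 27 and 25 nt. Replicate 1 had 1 site at nt 1265 to 1291, with a score of 4.50 and 2 units. Replicate 2 had 1 site at nt 1269 to 1293, with a score of 3.50 and 1 unit. Both replicates thus held the same short stretch, at 2 units or less. With sites longer than 25 nt alone, HK2 dropped out and 7 of the 10 members had sites in both replicates, where 5.5% of protein-coding genes did. PAR-CLIP AEG1 had 14 sites on HK2, from nt 2260 to 6615, each between 39 and 89 nt long and with 1 to 5 units. No PAR-CLIP site lay over the HITS-CLIP stretch. The PAR-CLIP sites covered 13.3% of the mRNA up to nt 6615, the lowest share among the 10.

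GPI, the isomerase of the second step, had the same pair of sites in both HITS-CLIP replicates. Replicate 1 had nt 315 to 354 (score 5.19, 6 units) and nt 901 to 1007 (5.78, 9 units). In replicate 2 they ran from nt 291 to 354 (5.93, 10 units) and from nt 927 to 1007 (5.42, 7 units). Both pairs shared their right end, and which site of the pair scored higher differed between replicates. PAR-CLIP AEG1 placed its own 2 highest sites over these stretches, nt 282 to 788 (8.07, 44 units) and nt 792 to 1206 (7.61, 32 units). Its other 15 GPI sites had scores from 2.61 to 6.93, and beyond nt 2119 they held at most 5 units each.

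ALDOA, the aldolase, had 4 HITS-CLIP sites in replicate 1 and 5 in replicate 2, covering 260 and 336 nt. The highest of replicate 1 was nt 606 to 716 (score 2.43, 12 units) and that of replicate 2 was nt 788 to 857 (1.84, 8 units). All 4 sites of replicate 1 were overlapped in replicate 2, whose site at nt 382 to 471 had no counterpart. In PAR-CLIP AEG1, 3 wide sites of 613, 308 and 417 nt, with 92, 34 and 38 units, covered 88.4% of the mRNA. The PAR-CLIP negative control held its only member site here, nt 493 to 568, with a score of -1.16 and 1 unit, inside the PAR-CLIP AEG1 site of 92 units (score 5.37).

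TPI1, the triose isomerase, had HITS-CLIP sites of 3 units each. They lay at nt 221 to 303 (score 2.06) and nt 494 to 526 (2.05) in replicate 1, and at nt 473 to 529 (2.05) in replicate 2, so that the second stretch recurred. PAR-CLIP AEG1 had 5 sites, led by one of 700 nt from nt 6 to 705 with a score of 6.40 and 61 units. Together they covered 90.4% of the mRNA up to nt 1215.

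GAPDH, at the oxidation step, had 4 HITS-CLIP sites in each replicate. Their highest sites overlapped, at nt 687 to 782 in replicate 1 (score 3.45, 12 units) and nt 732 to 805 in replicate 2 (3.57, 13 units). The other sites held 1, 4 and 1 units in replicate 1 and 5, 2 and 6 units in replicate 2. Sites at nt 199 to 265 and nt 348 to 391 were found in replicate 1 alone, and one at nt 817 to 866 in replicate 2 alone. PAR-CLIP AEG1 had a single site of 1309 nt, from nt 90 to 1398, with a score of 7.36 and 180 units. Its length exceeded the longest PAR-CLIP site of 99.5% of 8009 mRNAs.

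PGK1 and PGAM1 stood apart in HITS-CLIP. On PGK1, the kinase of the first ATP-yielding step, replicate 1 had no site and replicate 2 had nt 415 to 483, with a score of 2.32 and 5 units. On PGAM1, the phosphoglycerate mutase, neither replicate had a site. In PAR-CLIP AEG1, PGK1 had 6 sites with 157 units in all, led by nt 698 to 1385 (score 6.02, 65 units), and PGAM1 had 9 with 130 units, led by nt 802 to 1052 (6.77, 24 units). They covered 87.1% and 84.1% of these mRNAs, which lies among the shares of the members with HITS-CLIP sites. PGAM1 is uncertain because PGAM4 is a near-identical intronless copy. PGAM4 had 11 PAR-CLIP sites and no HITS-CLIP site, and 1 of them, nt 377 to 444, had the length of the PGAM1 site at nt 415 to 482 (68 nt), shifted by 38 nt.

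ENO1, the enolase, differed most between replicates in number, with 7 sites in replicate 1 and 3 in replicate 2, a mean of 5 ± 2.83 (SD, n = 2). The highest site had the same score of 0.06 and 11 units in each replicate but lay at different places, nt 739 to 830 in replicate 1 and nt 1183 to 1283 in replicate 2. All other ENO1 sites held 1 to 6 units. Sites within nt 1176 to 1283 and within nt 1698 to 1750 recurred, and those at nt 433 to 494, 604 to 646, 739 to 830 and 1316 to 1372 were in replicate 1 alone, as was nt 1655 to 1695 in replicate 2. PAR-CLIP AEG1 had 5 sites from nt 393 to 2180, led by nt 393 to 1067 (score 3.26, 101 units), and covered 80.1% of the mRNA.

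PKM, the pyruvate kinase, had the most HITS-CLIP sites, 9 in replicate 1 and 6 in replicate 2, covering 498 and 373 nt. They were spread from nt 201 to 2006. Its highest site in replicate 1 was nt 1143 to 1192 (score 3.94, 11 units), which replicate 2 matched at nt 1146 to 1195 (3.66, 9 units). Replicate 2 was highest at nt 1933 to 2006 (3.81, 10 units), which replicate 1 matched at nt 1940 to 2004 (3.29, 7 units). A further recurring site lay at nt 1707 to 1763 (10 units) and nt 1715 to 1782 (8 units). PAR-CLIP AEG1 covered 89.9% of the mRNA with 6 sites, led by nt 702 to 1503 (7.31, 113 units). The gene gives rise to the M1 and M2 enzymes by a choice of exon, and which form the fragments came from was not tested.

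LDHA, lactate dehydrogenase A, had 2 sites in replicate 1, nt 390 to 418 (score -0.73, 3 units) and nt 873 to 937 (0.01, 5 units). Replicate 2 had 1, nt 881 to 934 (-1.31, 2 units), within the second of these. PAR-CLIP AEG1 had 9 sites, with scores from -2.32 to 3.08, led by nt 818 to 1136 with 42 units, which contains the recurring HITS-CLIP stretch. GAPDH, ALDOA, ENO1, LDHA, PGK1, TPI1 and PGAM1 have processed pseudogenes, and the reference used for read matching is not known here, so fragments of such copies may be among their sites.

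Most HITS-CLIP sites on the glycolytic mRNAs recurred in the other replicate. Of 31 replicate 1 sites, 20 had a replicate 2 site over them by 1 nt or more (64.5%, with an exact 95% binomial interval of 45.4 to 80.8 that covers counting error only), and 63.2% of all replicate 1 sites did. Of 24 replicate 2 sites, 19 (79.2%, 57.8 to 92.9) overlapped a replicate 1 site, beside 71.3% of all replicate 2 sites. In both replicates together 39 of 55 member sites (70.9%) had a counterpart. With an overlap of at least 50% of each site it was 26 of 55 (47.3%), for which no share of all sites is given here. Sites of the same mRNA are not independent, so the intervals are too narrow.

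Along the mRNAs, the members' HITS-CLIP sites had about the same median place as all HITS-CLIP sites, but none had its midpoint in the last part. Their median midpoint was at 41.2% of the distance to the furthest site end. It was at 40.2% for the 11744 HITS-CLIP sites, members included, on 2050 mRNAs that also had PAR-CLIP sites. A midpoint past 80% was found for 0 of 55 member sites and for 1220 (10.4%) of the 11744. The 55 lie on 9 mRNAs, and no test was made. The last HITS-CLIP site ended at 80.3% of the furthest site end on ENO1, 80.2% on PKM, 61.9% on GAPDH, 57.9% on LDHA, 56.6% on ALDOA, 43.5% on TPI1, 26.5% on PGK1, 24.9% on GPI and 19.5% on HK2. For PAR-CLIP AEG1 the median midpoints were 59.0% over 75 member sites and 54.1% over all sites. On every member the furthest end was that of a PAR-CLIP site, whereas among all mRNAs HITS-CLIP sites ended as far as 100% of it. Places on the members and on all mRNAs may thus not be on a like scale. Coding boundaries were not analysed here.

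PAR-CLIP sites nearly tiled most of the glycolytic mRNAs. They covered between 80.1% and 93.6% of the distance to the furthest site end on 8 of the 10, 63.8% on GPI and 13.3% on HK2. The median was 85.6%, against 22.5% over the 8009 mRNAs with a PAR-CLIP site, and 9 of 10 members lay above that median. GAPDH stood above 99.1% of all mRNAs, TPI1 above 98.1%, PKM above 98.0% and HK2 above 33.0%. The members' furthest ends had a median of 1756 nt against 2062 nt for all, and the part of mRNA length in the cover was not tested. HITS-CLIP AEG1 covered far less, with a mean over the replicates of 19.7% on ALDOA, 18.1% on GAPDH, 17.4% on PKM and 12.9% on ENO1, and 7.12% or less on the other members with sites in both replicates. The corresponding median of 1244 mRNAs with sites in both replicates and PAR-CLIP was 6.20%.

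Of the 55 HITS-CLIP member sites, 53 (96.4%, exact 95% binomial interval 87.5 to 99.6) were overlapped by a PAR-CLIP site, beside 90.2% and 90.4% of all sites of the replicates. The 2 sites without PAR-CLIP cover were those of HK2, which overlap each other. Sites of the same mRNA, and the same stretch in both replicates, are not independent, so this interval is also too narrow. On mRNAs that PAR-CLIP covers this fully an overlap carries little information about place. With at least 50% of both sites required the count was 0 of 55. The share of all HITS-CLIP sites under that rule is not given here, so 0 cannot be called particular to the members. The members' PAR-CLIP sites were much wider, with a median of 127 nt against 57 and 63.5 nt in HITS-CLIP.

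**Figure D3:**
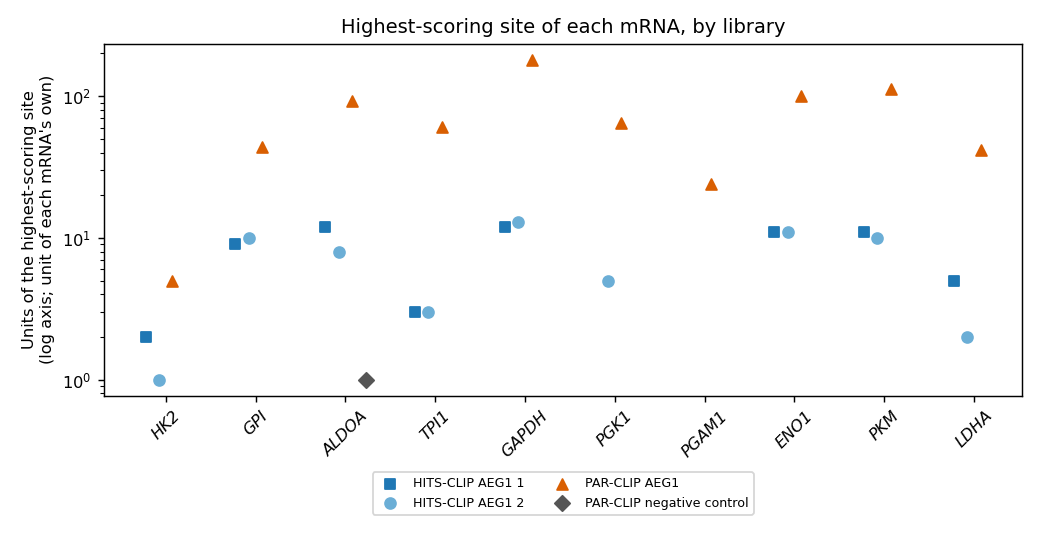
Points give the units of the highest-scoring site of each mRNA in each library, on a log axis, where the unit is each mRNA's own and heights compare libraries within a mRNA. PAR-CLIP AEG1 was highest on all 10 mRNAs, from 5 units on HK2 to 180 on GAPDH, and the HITS-CLIP replicates lay at 13 units or less.

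On every member with sites in both HITS-CLIP replicates the PAR-CLIP library held the higher top score, at sites that were also wider. The highest PAR-CLIP score exceeded the mean of the highest HITS-CLIP scores by 1.82 on HK2, 2.21 on GPI, 3.20 on ENO1, 3.23 on ALDOA, 3.43 on PKM, 3.73 on LDHA, 3.85 on GAPDH and 4.35 on TPI1 (log2). The SD between replicates of the highest HITS-CLIP score was at most 0.93 (LDHA, n = 2), so each gap was larger than that spread. With 1 PAR-CLIP library there is no test. The median gap was 3.33 for the 8 members and 1.66 for 1244 mRNAs, and 8 of 8 members lay above the latter. TPI1 exceeded 97.1% of these mRNAs and HK2 54.5%. Site width differed as well, over a larger set of mRNAs than the gap. The longest PAR-CLIP sites had a median of 644 nt on the 10 members against 114 nt over 8009 mRNAs. How width relates to the gap was not tested. On GAPDH the top site held 13.8 units per 100 nt in PAR-CLIP (1309 nt) and 12.5 and 17.6 in the HITS-CLIP replicates (96 and 74 nt). PKM had 14.1 against 22.0 and 13.5, GPI 8.68 against 8.41 and 15.6, and HK2 5.75 against 7.41 and 4, so that on these 4 mRNAs PAR-CLIP lay between the replicates per nt. PAR-CLIP lay above both replicates per nt on TPI1, with 8.71 against 3.61 and 5.26, and on LDHA, with 13.2 against 7.69 and 3.70. It also did on ENO1, with 14.96 against 11.96 and 10.9, and on ALDOA, with 15.01 against 10.8 and 11.4.

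Summed scores and covered length differed between the methods together, and a sum over separately called sites includes the length called. On the log2 scale, summed over sites, PAR-CLIP exceeded the mean of the HITS-CLIP replicates by 2.55 (PKM) to 4.89 (LDHA), with a median of 3.44, and covered nt by 2.17 (ALDOA) to 5.08 (HK2), with a median of 3.15. Over 1244 mRNAs these medians were 2.44 for the sums and 2.92 for covered nt. Per covered nt the members' difference was -0.91 on HK2, -0.76 on GPI, 0.19 on PKM, 0.64 on ALDOA, 0.66 on GAPDH, 0.73 on LDHA, 0.81 on TPI1 and 0.86 on ENO1. Its median was 0.65 for the members and -0.57 for all 1244 mRNAs, with 6 of 8 members above the latter. In units, PKM held 51 and 47 in HITS-CLIP and 287 in PAR-CLIP, ENO1 27 and 15 against 235, and LDHA 8 and 2 against 148. Library depth is unknown, so the size of a gap within a mRNA includes any difference in depth between methods, which is shared by all mRNAs.

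**Figure D4:**
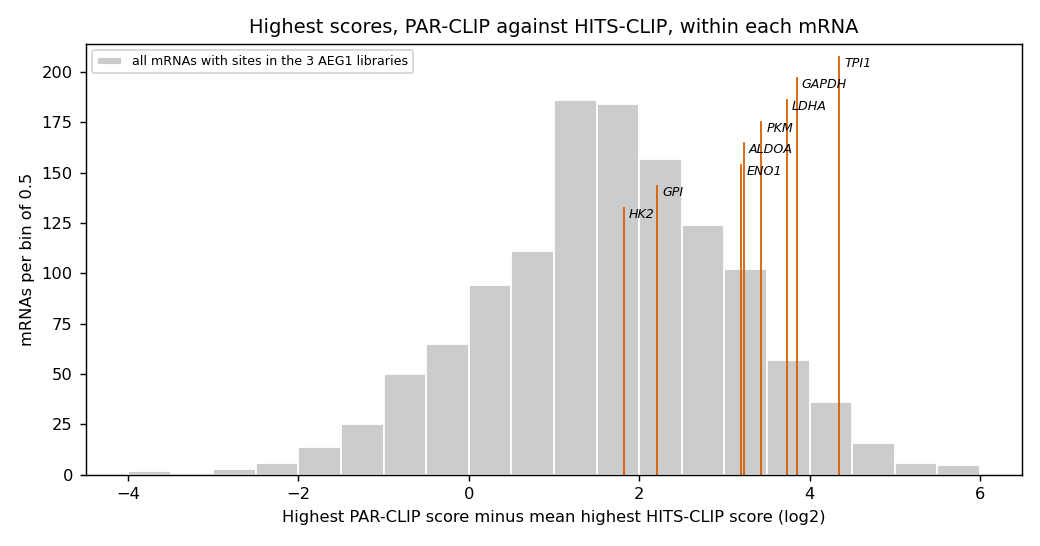
The grey histogram shows, for 1244 mRNAs with sites in the 3 AEG1 libraries, the highest PAR-CLIP score minus the mean highest HITS-CLIP score (log2) in bins of 0.5, and vertical lines mark 8 glycolytic mRNAs. The lines run from 1.82 (HK2) to 4.35 (TPI1), all to the right of the median of 1.66.

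Scores of the glycolytic mRNAs were low beside those of other mRNAs, a comparison that includes an amount fixed per mRNA. None of the 31 and 24 HITS-CLIP member sites exceeded the median score of its library, 6.34 and 6.39, so 0 of 10 members had such a site in both replicates, where 4.29% of protein-coding genes did. In PAR-CLIP 5 of 75 sites exceeded the median of 6.79, on the 3 members GPI, GAPDH and PKM, where 29.4% of protein-coding genes had such a site. The lowest PAR-CLIP score per mRNA was -2.32 on LDHA and -1.08 on ENO1, lower than on all but 0.0375% and 0.175% of mRNAs. For 9 of the 10 it lay below the median of all mRNAs, GAPDH with its single site of 7.36 being the other. The abundance of the mRNAs in the cells was not analysed here.

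The other genes of sugar metabolism, in 5 lists, ranged widely in HITS-CLIP. Of 19 isozymes and remaining glycolytic steps, 1 had sites in both HITS-CLIP replicates and 9 had PAR-CLIP sites. The 1 was HKDC1, a hexokinase-related protein, with 6 and 4 sites and 21 in PAR-CLIP. The 9 include PGAM4, the near-identical copy of PGAM1, and whether its 11 sites come from PGAM1 fragments was not tested. PFKL and PFKM, subunits of phosphofructokinase, had 0 and 0 and 0 and 1 HITS-CLIP sites, with 4 and 1 in PAR-CLIP. ENO2 and ALDOC, isozymes of members, had 7 and 2 PAR-CLIP sites and no HITS-CLIP site, and HK1, PFKP and LDHB had no site in any library. Of 11 genes for regulators of glycolysis and for cytosolic enzymes of gluconeogenesis, 0 had sites in both replicates and 4 had PAR-CLIP sites. Among the 4 was HIF1A, the hypoxia factor that activates glycolytic genes, with 21.

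Among 14 transporters and ER proteins of sugar metabolism, 8 had sites in both HITS-CLIP replicates and 10 in PAR-CLIP. SLC16A1 and SLC16A3, lactate carriers, had 11 and 8 and 2 and 1 HITS-CLIP sites, and BSG, their chaperone, 9 and 6. The glucose transporters SLC2A2, SLC2A8 and SLC2A1 had 6 and 3, 5 and 4, and 1 and 3. Taking the genes with a PAR-CLIP site as the base, 80% of this list and 80% of the 10 members had sites in both HITS-CLIP replicates, where 15.5% of all such genes did. The corresponding value was 14.3% for 7 genes of the cytosolic pentose phosphate pathway, where PGD had 1 and 2 sites and TKT and TALDO1 none. It was 17.6% for 17 mitochondrial proteins of pyruvate use and the citric acid cycle, where PC, pyruvate carboxylase, had 2 and 2, and PCK2 and DLD 1 and 1. All 7 and all 17 had PAR-CLIP sites. No set test was made between these lists.

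**Figure D5:**
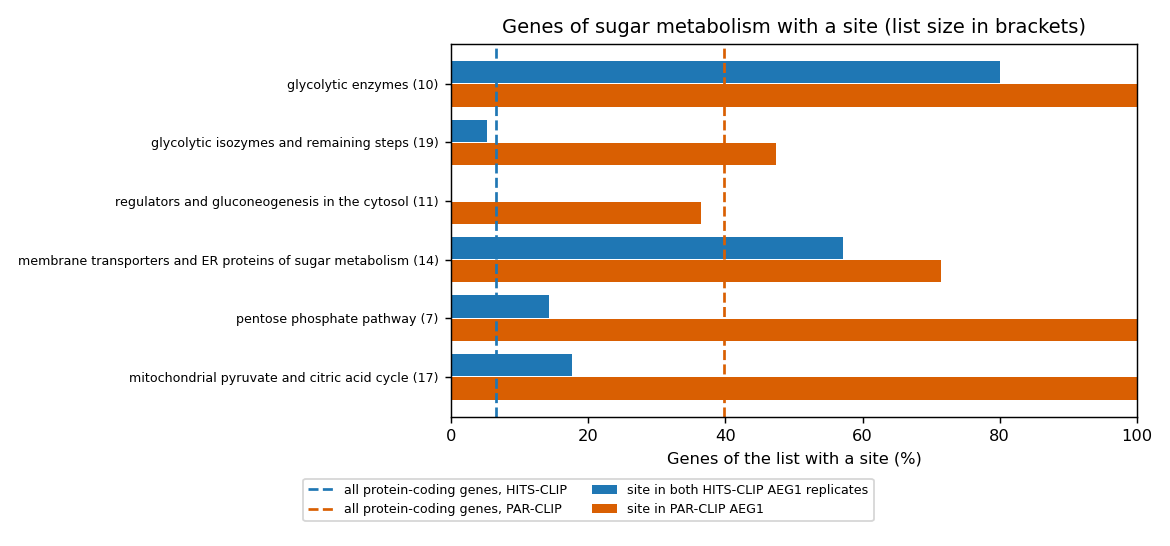
Bars give the percentage of each list with a site in both HITS-CLIP AEG1 replicates (blue) and in PAR-CLIP AEG1 (orange), with list sizes in brackets, and dashed lines give the same for all protein-coding genes (6.57% and 39.8%). In HITS-CLIP the 10 glycolytic enzymes (80%) and the membrane and ER proteins (57.1%) stand above the other 4 lists, which lie between 0% and 17.6%.

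The 5 genes whose covered length over the 6 libraries lay closest to the members' median profile were PRCP, SLC29A1, MFAP3, HNRNPL and TNFRSF10D. Their Euclidean distances in log2(1 + covered nt) ran from 0.32 to 0.40. PRCP, a lysosomal peptidase, had 115 and 120 nt in HITS-CLIP AEG1 and 1352 nt in PAR-CLIP AEG1, where the members' medians were 131 and 100 nt and 1379 nt. SLC29A1, a nucleoside transporter, had 148, 84 and 1463 nt, and HNRNPL, a nuclear RNA-binding protein, 112, 104 and 1708 nt.

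Without UV, few sites were called in all (60, 90 and 121), so these libraries say little about the members in particular. The HITS-CLIP negative controls had sites on 0 of 10, where 0.469% of protein-coding genes had a site in either. The PAR-CLIP negative control had a site on 1 of 10, where 0.329% of genes did. At the share of sites seen in HITS-CLIP AEG1, 0.274 and 0.412 member sites would fall in the HITS-CLIP controls. In the PAR-CLIP control the same share gives 0.553. That share comes from the other method, and the lower share of PAR-CLIP AEG1, 0.125%, would give a smaller number.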

How the data were processed

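Each file lists the called sites of 1 library. Per the labels' protocols, RNA was cut with RNase I, precipitated with anti-HA and sequenced as 50 nt single reads. The submitters' processing notes name Bowtie. Site caller, threshold, reference and use of controls were not given in the sources used here. Each score is a deposited log2 value, with its normalization unstated. Starts were taken as 0-based and are printed 1-based on the RefSeq mRNA. Of 8204 transcripts, 8146 were named by accession through a RefSeq table (GRCh38.p14), 30 by symbol and 21 by synonym, and 7 kept the name in the file. Units are the smallest whole numbers that give all scores of a mRNA as multiples of a common amount, with multipliers read from the HK2 and ENO1 scores. Overlap means at least 1 nt. The 10 members and all lists were chosen with earlier results of these data known. Named genes are the members, list genes with sites in both HITS-CLIP AEG1 replicates (at most 6 per list) and the 5 nearest profiles; PFKL, PFKM, ENO2, ALDOC, HK1, PFKP, LDHB, HIF1A, TKT, TALDO1 and PGAM4 were added after their values were seen. Some list genes are not reported here by name. Python 3.11.15, pandas 2.3.3 and SciPy 1.17.1 were used, and the overlap, cover and permutation routines were tested on simulated data. Sequences of the sites were not used here.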

Additional observations from a re-analysis of the deposited data

How the results depend on the processing

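With at least 2 sites per mRNA required, 5 members had sites in both HITS-CLIP replicates in place of 8, where 3.29% of protein-coding genes did; fewer sites count under this rule. Among sites above the library's median score, 0 members had HITS-CLIP sites and the difference to the controls was 0 sites, while 3 members had PAR-CLIP sites in place of 10; the scale of scores differs between mRNAs. With 50% overlap of each site, 47.3% of HITS-CLIP member sites recurred and 0% had PAR-CLIP cover, with no share of all sites given beside them. The other alternatives (sites over 25 nt, either replicate, sites of at least 3 units, 1 transcript per gene) kept their direction and stayed within 1.5 times the main values. In covered nt the difference to the controls was 1634.5 nt, in the same direction. Per covered nt, an alternative added after seeing the data, the members' median of PAR-CLIP over HITS-CLIP summed scores was 0.65 in place of 3.44 (log2). Sites over 25 nt leave 7 members, without HK2. The rule on 3 units, added after seeing the data, leaves 6. Units do not compare mRNAs, so this rule is not equally strict on each of them. Units were read for the members only, and no share of all genes stands beside this count. Without 1 library, members with HITS-CLIP sites ranged from 8 to 9, the difference to the controls from 24 to 31 sites and PAR-CLIP cover from 95.8% to 96.8%. With the replicate block the difference was 27.5 sites, and the smallest p is 0.5; numbers 1 and 2 were not shown to pair the libraries (correlation of deviations 0.03 over 2251 genes). Shares above the median score could not be computed, as no site was left. Depth is unknown and limits all levels.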
